A study of Mus musculus with 72 samples.

Results

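Gene expression was compared between mouse embryonic stem cells without and with Nup133 at day 2 of a neural differentiation, after LIF had been withdrawn and before retinoic acid was given. The comparison was made of all 24 day 2 files of the 72 in the series, added up to 3 knockout and 3 control samples, and it is described across the 18273 genes that passed a filter on low counts. The knockout samples were lines 14 and 19, which are Nup133-/- derivatives of the line HM1 made by CRISPR/Cas9 and labelled XY (line 14) and likely XY (line 19), and line 319, which is blastocyst-derived, carries Nup133merm/merm and Sox1gfp/+, and is labelled XX with added copies of chromosomes 8 and 12. The controls were 2 biological replicates of HM1 (Nup133+/+, XY) and the blastocyst-derived line 1A4 (Nup133+/+, Sox1gfp/+, XY). All lines had been kept on feeder fibroblasts in serum with LIF, were freed of feeders by plating and were then grown on gelatin in N2B27, a serum-free medium, without LIF. Each mutant line is a single line sampled once at this day, so the spread within the knockout group is that between lines.

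The product of Nup133 belongs to the Y-complex, the ring-forming scaffold on both faces of the nuclear pore. In N2B27 without LIF, embryonic stem cells leave naive pluripotency, pass through a state like the epiblast of the early embryo and then mostly take a neural course. In the epiblast, Nodal, Wnt and BMP signals set up the primitive streak and its anterior derivatives, the node and the notochord, and secreted antagonists of these signals keep the anterior part neural. Cells of the streak and its derivatives make some of these signals and antagonists.

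Several properties of the samples bear on every value below. The gene counts ranged from 41.6 M to 48.3 M in the controls and were 51.7 M in line 14, 16.5 M in line 19 and 23.1 M in line 319. Line 19 stood apart by transcript length. Against the controls of its own background, the median log2 ratio of line 19 was 0.82 in the fifth of genes with the shortest transcripts and -0.79 in the fifth with the longest, while both medians lay between -0.04 and 0.00 in lines 14 and 319. Genes of the Y chromosome went against the labels of lines 14 and 19: Ddx3y was at 25.5, 30.8 and 66.1 CPM (counts scaled to a library total of 1000000) in the controls and at 1.12, 0.151 and 0.173 CPM in lines 14, 19 and 319. Chromosome 8 went against the label of line 319, with a median log2 ratio to line 1A4 of -0.58, whereas chromosome 12 was higher by 0.48 and the X chromosome by 0.56. Chromosome 11 had a lower median in every knockout line, at -0.32, -0.30 and -0.21 in lines 14, 19 and 319, and also in line 1A4 against HM1, at -0.18. Of the calls described below it held 56 lower and 3 higher in the knockout. With each chromosome centred in each sample, an alternative chosen after the data were seen, it held 9 lower and 8 higher. Chromosome 8 was also at -0.31 in line 19, but at day 2 the medians of that line ran from -0.36 (X) to 0.18 (chromosome 7), without Y. Chromosomes 1 (-0.31) and 3 (-0.29) were as low. At days 0 and 3, line 19 was at -0.21 and -0.38 for chromosome 8 and at -0.22 and -0.35 for chromosome 11. Its medians for chromosomes 1, 3 and X were then above 0. Chromosome 8 held 16 lower and 0 higher calls, or 5 lower and 0 higher with the centring.

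**Figure D1:**
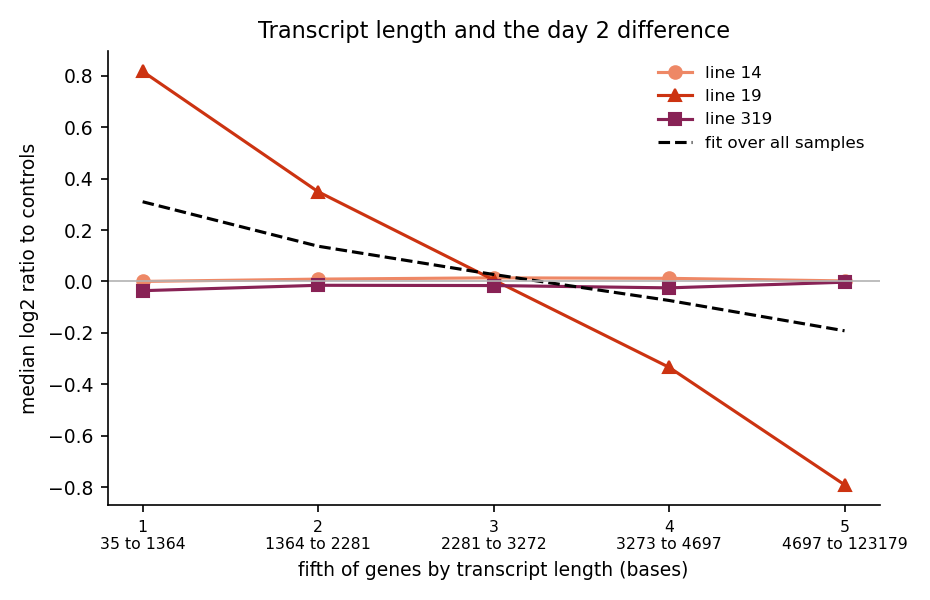
Median log2 ratio of each knockout line to the day 2 controls of its own background (y axis) in 5 groups of genes ordered by transcript length (x axis, with the length range in bases). Line 19 falls from 0.82 to -0.79 while lines 14 and 319 stay near 0; the dashed line is the fold change fitted over all samples.

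**Figure D2:**
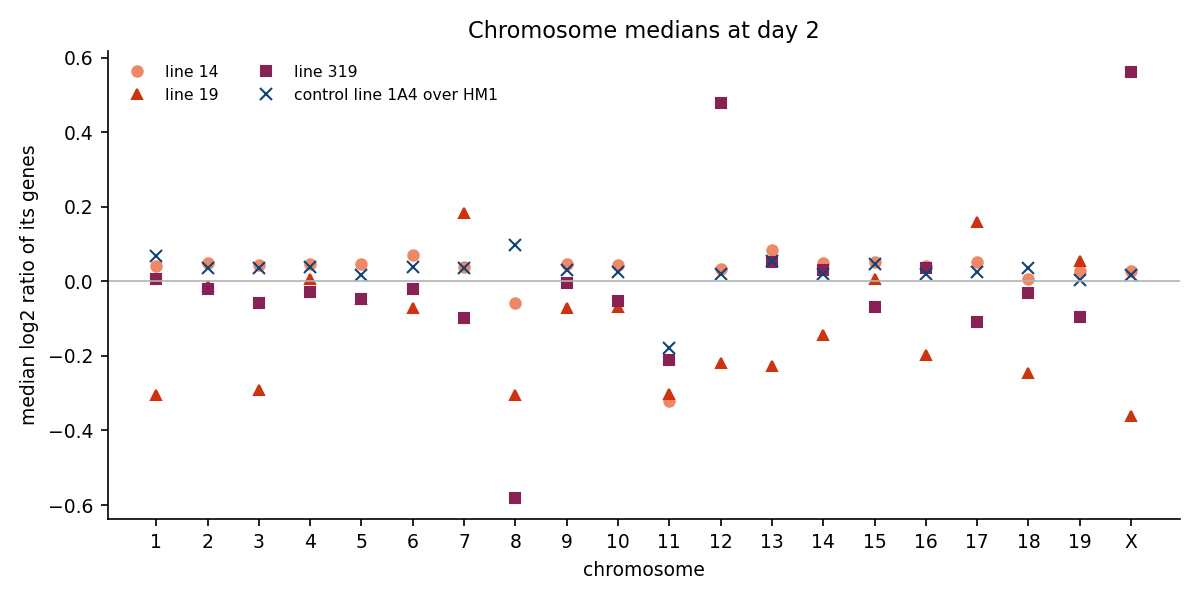
Median log2 ratio of the genes of each chromosome (x axis) at day 2, for each knockout line against the controls of its own background and for control line 1A4 against HM1. Chromosome 11 is below 0 in all 4 series, and line 319 lies at -0.58 for chromosome 8 and above 0 for chromosomes 12 and X; the Y chromosome is not drawn.

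The targeted transcript was examined first, and samples are listed from here on in the order HM1 replicate 1, HM1 replicate 2 and line 1A4 for controls, and lines 14, 19 and 319 for knockouts. Nup133 (chromosome 8: 123897123 to 123949265, minus strand, GRCm38) was at 229, 236 and 268 CPM in the controls and at 20.2, 36.0 and 19.9 CPM in the knockouts. The groups did not overlap, and the remaining transcript level was highest in line 19. The log2 fold change was -3.28 ± 0.26 (SE, adjusted p = 3.16e-05). Of the 10 measured genes of the Y-complex, Nup133 was the only one called. Nup85, another Y-complex subunit, was at 224, 237 and 201 CPM in controls and at 158, 216 and 153 CPM in knockouts, a log2 fold change of -0.33 ± 0.12 that was not called (adjusted p = 0.151). Without line 19 it was called at -0.49 (adjusted p = 0.0091), and it lies on chromosome 11, whose median is lower in each line.

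At an adjusted p below 0.05, 292 genes were called, which is 1.6% of the genes tested. Of these, 116 (0.635%) were higher and 176 (0.963%) lower in the knockout, and 197 differed by more than a log2 fold change of 1. At an unadjusted p below 0.05, 2085 of the 18273 genes tested were higher and 1650 lower. A fold change above 0 was found in 9376 genes and one below 0 in 8897, against which the counts in gene lists below are to be read. Without line 19 at day 2, 381 genes were called (2.01% of those tested; 161 or 0.851% higher, 220 or 1.16% lower), and 218 of the 292 were among them. With an offset for transcript length 478 (2.62%) were called and the split moved to 248 higher (1.36%) and 230 lower (1.26%), with 246 of the 292 among them. With HM1 and its derivatives only, 245 were called, and 114 of the 292 were among them. The count depended strongly on single libraries. Leaving out a control gave 50 (HM1 replicate 1), 61 (HM1 replicate 2) or 93 calls (line 1A4), and leaving out a knockout line gave 1507 (line 14) or 926 (line 319). The spread that supports these calls was estimated over all 18 samples of the series. Fitted on the 6 day 2 samples alone, edgeR called 0 genes, with 1460 at an unadjusted p below 0.05.

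Among the 292 genes, 291 had CPM values that did not overlap between the groups, as had 21.7% of all genes tested. Each of 42 genes, 11 higher and 31 lower, was called in all 6 fits that left out a day 2 sample, and 33 of these lie outside chromosomes 8, 12, X and Y. They included Shh, Aplnr, Cer1, Cyp26a1, Lhx1, Bmp2, Postn, Acta2, Isg15 and Samd3, all lower, and Hhipl2, Dmrt3, Dlx2, Nuggc, Nup210l and Ifitm3, all higher. Of the 33, Cntrob, Kdm6b, Lhx1, Nfe2l1, Rad51c and Specc1, all lower, lie on chromosome 11, whose median was lower in every knockout line.

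The other calls described below are less firm. Of 67 described genes that were called, 17 were called in all 6 of those fits and 50 lost the call in at least 1, with a highest adjusted p per gene between 0.0515 and 0.203. All of the 50 but Stat2 lost it without HM1 replicate 1, 48 without HM1 replicate 2 (all but Ddx39b and Esam) and 33 without line 1A4. Without line 14 the calls of Dkk1, Ptch1, Zic1, Hoxa7 and Dlx1 were lost, and without line 319 those of Msx1, Fzd5, Ptch1, Psph, Msmo1, Tagln, Pdgfra and Dlx1. Without line 19 the calls of Msx1, Frzb, Fzd5, Gsx1, S100a4, Cldn15, Vldlr, Pycr1, Msmo1, Scd2, Myh10, Hoxa7 and Cdkn2a were lost. The fit with the line as a replicate block across days used limma instead of edgeR, with an estimated correlation within lines of 0.009. By that test Msx1, Frzb, Ptch1, Zic1, S100a4, Fth1, Hoxa7, Cdkn2a and Dlx1 were not called, with adjusted p-values between 0.0539 and 0.0803. Effects of the block and of the other test cannot be told apart in these losses.

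**Figure D3:**
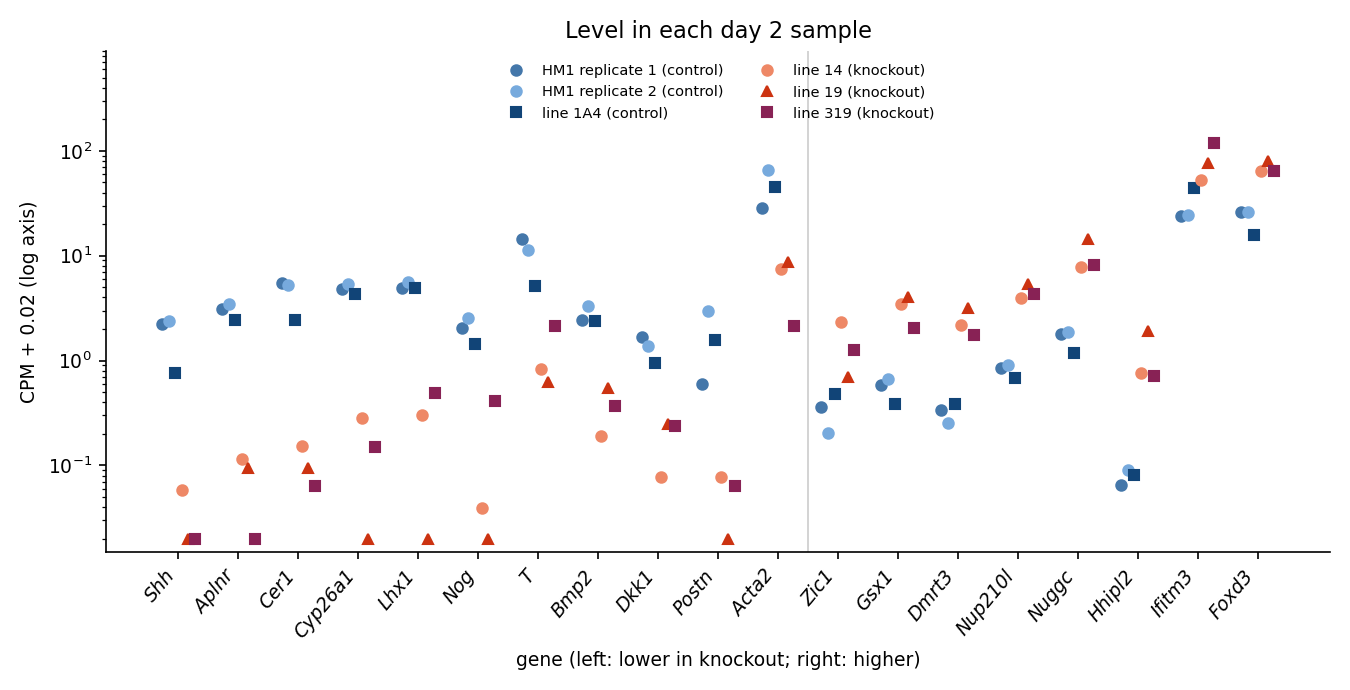
CPM of 19 called genes in each day 2 sample, on a log axis after adding 0.02 so that samples at 0 can be drawn. Blue points are controls and red to purple points are knockout lines; to the left of the vertical line the knockouts lie below all controls, to the right above them.

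Several genes of the primitive streak, node and notochord were lower in the knockout. Of the 17 tested genes of the mesendoderm list, 6 were lower and 0 higher by the test, and the median log2 fold change was -0.78 against 0.02 over all genes. Without line 19 at day 2 the same 6 were called and the median was -1.30. With line 19 left out on all days 4 were called, T and Nog not among them, and without either HM1 replicate 3 were, as T, Noto and Nog lost the call. The lines were not alike in this list. Its median was -1.70 in line 14 and -2.08 in line 19 against HM1, and -0.41 in line 319 against line 1A4. The list was chosen with this direction known, so the count is not independent evidence of it.

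Cer1 encodes Cerberus, a secreted antagonist of Nodal, BMP and Wnt. It was at 5.46, 5.23 and 2.4 CPM in the controls and at 0.133, 0.0754 and 0.0432 CPM in the knockouts. Every knockout line was near 0 and the groups were far apart (log2 fold change -5.46 ± 0.51, adjusted p = 0.000309). Lhx1, a LIM homeodomain factor of the node and head organizer, was at 4.88, 5.65 and 4.87 CPM in controls and at 0.285, 0 and 0.475 CPM in knockouts (-4.20 ± 0.59, adjusted p = 0.0031). The 3 controls were close to one another and far above every knockout line. T, which encodes Brachyury and marks the streak and notochord, was at 14.4, 11.4 and 5.17 CPM in controls and at 0.817, 0.603 and 2.12 CPM in knockouts. Line 1A4 was the lowest control and line 319 the highest knockout for T, and the ranges did not overlap (-3.08 ± 0.58, adjusted p = 0.015).

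Shh, the Hedgehog ligand made by the node, notochord and floor plate, was at 2.20, 2.37 and 0.748 CPM in the controls and at 0.038, 0 and 0 CPM in the knockouts. No knockout sample held more than 3 counts, so its level was at least 12.9-fold lower (adjusted p = 0.000371), with 3 counts taken as the floor in each knockout sample. Noto, a notochord homeobox gene, was at 0.764, 0.488 and 0.344 CPM against 0.019, 0 and 0 CPM, at least 3.86-fold lower by the same rule (adjusted p = 0.0142). Nog, which encodes the BMP antagonist Noggin, was at 2.04, 2.51 and 1.41 CPM against 0.019, 0 and 0.389 CPM (log2 fold change -3.99 ± 0.79, adjusted p = 0.0206). Line 319 kept a measurable Nog level where lines 14 and 19 did not.

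The remaining 11 tested genes of this list did not pass the test. Foxa2, a node and endoderm factor, was at 3.53, 3.28 and 1.74 CPM in controls and at 1.65, 1.43 and 0.519 CPM in knockouts (-1.23 ± 0.37, adjusted p = 0.0948). Mixl1, a streak homeobox gene, was at 1.37, 1.33 and 0.849 CPM against 0.608, 0.603 and 0.951 CPM, with overlapping groups. Eomes, a T-box factor of the streak, was at 7.44, 6.35 and 5.74 CPM in controls and at 6.86, 5.58 and 20.9 CPM in knockouts. Only line 319 was high for Eomes, and its fitted sign turned without that line (0.74 with it, -0.14 without). Of the 9 tested markers of nascent mesoderm, 2 (T and Kdr) were lower by the test. One marker, Pdgfra, was higher (log2 fold change 1.47, adjusted p = 0.032). Kdr, a receptor for vascular endothelial growth factor outside the mesendoderm list, was at 2.09, 1.81 and 1.15 CPM against 0.266, 0.151 and 0.562 CPM (-2.31 ± 0.46, adjusted p = 0.0204). The 10 markers fixed for nascent mesoderm summed to 37.2, 35.9 and 18.3 CPM in the controls, to 10.7 and 6.49 CPM in lines 14 and 19 and to 49.1 CPM in line 319. Most of the sum in line 319 was 1 marker, Lefty2, at 15.8, 17.5 and 6.83 CPM in controls and 2.89, 1.89 and 37.0 CPM in knockouts. In bulk RNA, fewer cells of a type and less RNA per cell cannot be told apart.

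Of the apelin pathway, only the receptor passed the test. Aplnr, a receptor of migrating mesoderm, was at 3.08, 3.44 and 2.4 CPM in controls and at 0.095, 0.0754 and 0 CPM in knockouts (log2 fold change -5.51 ± 0.72, adjusted p = 0.0014). Apln, which encodes apelin, was at 15.2, 11.8 and 7.15 CPM against 9.58, 11.01 and 12.7 CPM (0.02 ± 0.23, adjusted p = 0.972), and its sign turned with several settings, among them the chromosome centring (-0.071). Apela, the early embryonic ligand, was at 27.9, 25.6 and 16.0 CPM against 33.3, 45.3 and 31.7 CPM (0.69 ± 0.42, adjusted p = 0.366).

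Cyp26a1, the enzyme that degrades retinoic acid and a classical target of the retinoic acid receptor, was nearly silent in the knockout. It was at 4.83, 5.32 and 4.28 CPM in the controls and at 0.266, 0 and 0.130 CPM in the knockouts. The controls lay close together and every knockout line was far below them (-4.71 ± 0.46, adjusted p = 0.000225; -4.43 without line 19). The bases before its start are shown because they carry a repeated hexamer of retinoic acid response elements. The sequence (RefSeq, GRCm38.p6, chr19:37697558-37697797, plus strand, ending before the first annotated exon) has the matches to AGTTCA in capitals, both on the opposite strand, beginning 32 and 21 bases before the RefSeq start.
Cyp26a1: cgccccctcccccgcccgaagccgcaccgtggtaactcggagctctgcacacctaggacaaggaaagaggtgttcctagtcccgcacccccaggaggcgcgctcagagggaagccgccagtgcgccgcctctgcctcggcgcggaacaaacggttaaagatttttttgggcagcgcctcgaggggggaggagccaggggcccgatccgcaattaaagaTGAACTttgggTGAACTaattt
The hexamer AGTTCA, on either strand, was found in the 250 bases before the start in 11.8% of 32851 mouse promoters. A direct repeat of it with 5 bases between was found in 7 of them (0.0213%), one of which is Cyp26a1. A match describes the letters and does not show that a factor binds.

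Of the 24 tested genes of the retinoid list, Cyp26a1 was the only one lower by the test, and the median log2 fold change was 0.27. Hoxa7, one of 22 tested Hox genes, was higher, at 0.315, 0.186 and 0.162 CPM against 0.893, 1.21 and 0.432 CPM (1.92 ± 0.46, adjusted p = 0.0497; 0.0837 without line 19). The Hox list had a median of 0.74, with 0.10, 0.54 and 1.28 in lines 14, 19 and 319.

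Of 18 BMP pathway genes, 2 were lower and 1 higher by the test (median -0.24). Bmp2, a ligand, was at 2.43, 3.33 and 2.38 CPM against 0.171, 0.528 and 0.346 CPM (-3.14 ± 0.50, adjusted p = 0.0082). The other lower gene was Nog. Msx1, a homeobox target of BMP signals, was higher, at 0.786, 0.977 and 0.788 CPM against 1.54, 2.49 and 4.37 CPM (1.68 ± 0.40, adjusted p = 0.045; 0.0557 without line 19).

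Of 27 Wnt pathway genes, 3 were lower and 0 higher by the test (median -0.36, or -0.15 without line 19). A fold change below 0 was found in 19 of the 27, and in 8897 of all 18273 genes. At an unadjusted p below 0.05, 8 of the 27 were lower, and 1650 of all genes. Dkk1, which encodes a secreted Wnt antagonist, was at 1.64, 1.37 and 0.929 CPM in controls and at 0.057, 0.226 and 0.216 CPM in knockouts (-3.27 ± 0.72, adjusted p = 0.0351). Frzb, which encodes another Wnt antagonist, was at 2.07, 1.60 and 1.07 CPM against 0.646, 0.226 and 0.389 CPM (-1.75 ± 0.39, adjusted p = 0.0351). Fzd5, a Wnt receptor, was at 54.7, 61.3 and 56.2 CPM against 43.1, 21.7 and 22.95 CPM (-0.97 ± 0.23, adjusted p = 0.042). The calls of Frzb and Fzd5 were lost without line 19 (adjusted p = 0.0632 and 0.0711). In the Hedgehog list of 14 genes, Shh was lower and Ptch1, the receptor that Hedgehog signals induce, was higher. Ptch1 was at 146, 165 and 136 CPM in controls and at 469, 230 and 275 CPM in knockouts (1.12 ± 0.27, adjusted p = 0.0488). Line 14 was the highest for Ptch1, whose call held only in the fit without line 19 among the 6 that left out a sample (adjusted p up to 0.188).

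Several genes of amino acid supply were lower in the knockout. The integrated stress response acts through the factor ATF4, which raises genes that make, import and load amino acids onto tRNA. Of the 18 tested genes of this list, 5 were lower and 0 higher by the test. At an unadjusted p below 0.05, 10 of the 18 were lower, and 1650 of all 18273 genes. The median log2 fold change was -0.76 (-0.81 without line 19 and -0.80 with the length offset), and it was alike in lines 14, 19 and 319 at -0.86, -0.73 and -0.59. The 5 genes were Psat1, Mthfd2, Slc7a5, Vldlr and Asns. Without line 19, Vldlr was lost (adjusted p = 0.0561) and Sars (-0.70, adjusted p = 0.0168) and Ddit3 (-1.29, adjusted p = 0.0498) were added.

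Psat1, an enzyme of serine synthesis, was at 856, 864 and 708 CPM in controls and at 513, 394 and 489 CPM in knockouts (-0.80 ± 0.14, adjusted p = 0.0108). Mthfd2, a mitochondrial folate enzyme, was at 187, 197 and 167 CPM against 86.4, 71.5 and 97.8 CPM (-1.12 ± 0.21, adjusted p = 0.0165). Asns, asparagine synthetase, was at 400, 405 and 341 CPM against 234, 226 and 230 CPM (-0.73 ± 0.16, adjusted p = 0.0332), with nearly equal levels in the 3 knockout lines. Slc7a5, the transporter of large neutral amino acids, was at 506, 521 and 447 CPM against 311, 211 and 253 CPM (-0.93 ± 0.18, adjusted p = 0.0176). Vldlr, a lipoprotein receptor, was at 34.8, 37.5 and 29.9 CPM against 13.6, 8.22 and 17.8 CPM (-1.36 ± 0.29, adjusted p = 0.0325). None of the 5 kept its call without either HM1 replicate, and Vldlr and Asns also lost it without line 1A4 (adjusted p up to 0.135 over the 6 fits).

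Further enzymes and transporters of amino acids were called lower outside the list, and they are named after their values were seen. Gpt2, which makes alanine, had a log2 fold change of -1.46 ± 0.29, and Slc1a4, a transporter of alanine and serine, one of -1.22 ± 0.23. Cth, which makes cysteine, was lower by -0.92 ± 0.20, Aars, the alanyl-tRNA synthetase, by -0.88 ± 0.16, Pycr1, which makes proline, by -0.85 ± 0.19 and Psph, of serine synthesis, by -0.59 ± 0.13. Their adjusted p-values lay between 0.0138 and 0.0373. Gpt2 and Aars lie on chromosome 8 and Slc1a4 and Pycr1 on chromosome 11, and these 4 were not called with each chromosome centred. Aars (adjusted p = 0.131) and Cth (0.0502) were not called with the length offset. Atf4 itself was not called, at 332, 351 and 266 CPM against 179, 325 and 246 CPM (-0.35 ± 0.25, adjusted p = 0.452).

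Promoters of 3 of these genes are shown because they hold the C/EBP-ATF response element, the composite site through which ATF4 acts. Chac1, which encodes a glutathione-degrading enzyme, was at 35.0, 52.7 and 42.4 CPM in controls and at 10.02, 9.58 and 19.7 CPM in knockouts (-1.89 ± 0.63, adjusted p = 0.121). Atf3, a stress-induced factor, was at 12.1, 11.9 and 16.4 CPM against 4.03, 2.71 and 5.32 CPM (-1.74 ± 0.50, adjusted p = 0.0863). The groups of both genes did not overlap, but neither passed the test. Pycr1 was at 86.9, 88.6 and 73.1 CPM against 56.3, 41.8 and 39.6 CPM (adjusted p = 0.0351). The sequences (RefSeq, GRCm38.p6) run up to the first annotated exon at chr2:119350992-119351228 (Chac1, plus strand), chr1:191183341-191183583 (Atf3, minus strand) and chr11:120643770-120643998 (Pycr1, minus strand), with the match to TGATGCAA on either strand in capitals.
Chac1: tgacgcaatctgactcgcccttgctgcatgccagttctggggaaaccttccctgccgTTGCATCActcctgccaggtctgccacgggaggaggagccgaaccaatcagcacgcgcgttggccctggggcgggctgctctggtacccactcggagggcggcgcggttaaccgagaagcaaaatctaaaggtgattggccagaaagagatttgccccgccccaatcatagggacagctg
Atf3: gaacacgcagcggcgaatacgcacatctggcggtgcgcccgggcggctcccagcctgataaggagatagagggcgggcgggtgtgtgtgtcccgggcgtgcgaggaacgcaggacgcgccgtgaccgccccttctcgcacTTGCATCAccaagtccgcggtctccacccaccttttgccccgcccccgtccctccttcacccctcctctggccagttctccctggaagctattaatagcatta
Pycr1: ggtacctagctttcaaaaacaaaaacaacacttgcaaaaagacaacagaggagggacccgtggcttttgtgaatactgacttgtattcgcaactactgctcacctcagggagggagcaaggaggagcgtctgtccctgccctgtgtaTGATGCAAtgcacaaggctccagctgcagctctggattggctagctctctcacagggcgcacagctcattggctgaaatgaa
The element begins 193, 110 and 103 bases before the RefSeq start of Chac1, Atf3 and Pycr1. Of the 15 list genes with a promoter entry, 5 held TGATGCAA on either strand within the 250 bases before any of their starts, as did 0.918% of all 27025 genes with an entry. Pycr1 is not on the list, and of the 5 called list genes only Vldlr held a match. No factor was measured here, and the matches are a description.

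Several enzymes of cholesterol and fatty acid synthesis were lower, and line 19 had the lowest list median. Of 24 tested genes, 5 were lower and 0 higher by the test, 23 had a fold change below 0, and the median was -0.56. The median was -0.27, -0.88 and -0.47 in lines 14, 19 and 319 and -0.37 without line 19. Lss, lanosterol synthase, was at 325, 335 and 322 CPM in controls and at 216, 139 and 168 CPM in knockouts (-0.91 ± 0.16, adjusted p = 0.0114). Msmo1, a sterol C4 demethylase, was at 342, 365 and 350 CPM against 250, 171 and 162 CPM (-0.85 ± 0.19, adjusted p = 0.0384). Fasn, fatty acid synthase, fell by 0.94 ± 0.21 on the log2 scale (adjusted p = 0.0384), Scd2, a fatty acid desaturase, by 0.93 ± 0.21 (adjusted p = 0.0401) and Acaca, acetyl-CoA carboxylase, by 0.66 ± 0.15 (adjusted p = 0.0398). Line 19 was the lowest sample for Lss, Fasn, Scd2 and Acaca. Without line 19, Lss, Fasn and Acaca were called; with the length offset, Msmo1, Scd2 and Mvd were. The count was 0 without either HM1 replicate or with HM1 and its derivatives only, 2 without line 1A4 and 13 without line 14. Fasn and Acaca on chromosome 11 and Msmo1 on chromosome 8 were not called with each chromosome centred. Chromosome 11 and this loss were shared by the abundant genes Myh10, a nonmuscle myosin (-1.05 ± 0.24, adjusted p = 0.042), and Larp1, an RNA-binding protein (-0.62 ± 0.13, adjusted p = 0.0311).

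Some contractile and matrix genes were lower. Acta2, smooth muscle actin, was at 28.6, 66.3 and 44.9 CPM in controls and at 7.39, 8.60 and 2.12 CPM in knockouts (-3.16 ± 0.48, adjusted p = 0.0054). Tagln, a smooth muscle actin-binding protein, was at 52.6, 66.3 and 84.1 CPM against 21.8, 29.3 and 5.49 CPM (-2.07 ± 0.50, adjusted p = 0.0488). Postn, which encodes the matrix protein periostin, was at 0.584, 2.98 and 1.56 CPM against 0.057, 0 and 0.0432 CPM, at least 12.4-fold lower (adjusted p = 0.004); in HM1 and its derivatives only, it was not called. Line 319 was the lowest for Acta2 and Tagln. These genes belong to the 15 markers fixed for fibroblasts, of which 14 were tested, 3 were lower and 1, Pdgfra, was higher. The markers summed to between 299 and 354 CPM in the controls and to between 175 and 252 CPM in the knockouts. These sums include Acta2 and Tagln, whose lower levels are given above. The tested markers without a call went both ways. Cnn1 (-1.15), Pdgfrb (-0.71), Col1a1 (-0.55), Thy1 (-0.41) and Fbn1 (-0.35) had log2 fold changes below 0. Those of Dcn (0.67), Loxl1 (0.50), Col3a1 (0.41), Mmp2 (0.23) and Col1a2 (0.19) were above 0. One marker, Lum, stayed below 1 CPM in every sample. Pdgfra, a growth factor receptor of fibroblasts, primitive endoderm and mesoderm, was at 1.53, 1.33 and 1.60 CPM against 4.85, 1.81 and 5.49 CPM (1.47 ± 0.32, adjusted p = 0.032). The part of feeder cells in these values was not tested.

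Interferon-stimulated genes were called in both directions. Of 15 tested, 2 were lower and 1 higher. Isg15, a ubiquitin-like modifier, was at 0.607, 0.907 and 0.586 CPM in controls and at 0.038, 0 and 0 CPM in knockouts, at least 5.08-fold lower (adjusted p = 0.009). Stat2, a transducer of interferon signals, was at 55.8, 60.0 and 59.2 CPM against 34.8, 27.9 and 33.3 CPM (-0.86 ± 0.14, adjusted p = 0.009). Ifitm3, an antiviral membrane protein also found in early germ cells, was at 24.1, 24.5 and 44.6 CPM against 52.4, 75.8 and 118 CPM (1.40 ± 0.16, adjusted p = 0.000675). Outside this list, Isg20, an exonuclease, was at 0.337, 0.395 and 0.303 CPM against 1.35, 2.49 and 0.778 CPM (2.03 ± 0.35, adjusted p = 0.01). Samd3 was at 1.44, 1.60 and 0.748 CPM against 0.095, 0.151 and 0 CPM (-4.01 ± 0.65, adjusted p = 0.01).

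Lists of epiblast and neural factors held few calls. Foxd3, a forkhead factor of the epiblast and neural crest, was at 26.0, 25.9 and 15.7 CPM in controls and at 64.6, 80.5 and 63.7 CPM in knockouts (1.63 ± 0.34, adjusted p = 0.0258). It was the only gene called among 19 of the formative and primed list, of which 17 had a fold change above 0 (median 0.41). Sox2, the pluripotency and neural factor, was at 142, 155 and 115 CPM against 272, 183 and 266 CPM (0.83 ± 0.16, adjusted p = 0.0198), the only call among 10 general pluripotency genes. Fgf5, a marker of the primed epiblast, was at 60.8, 54.9 and 63.9 CPM against 131, 151 and 118 CPM and was not called (1.15 ± 0.48, adjusted p = 0.199), although the groups did not overlap.

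Zic1, a zinc finger factor of the dorsal neural tube, was the only call of the 18 neural progenitor genes. It was at 0.337, 0.186 and 0.465 CPM in controls and at 2.30, 0.679 and 1.25 CPM in knockouts (2.15 ± 0.49, adjusted p = 0.0392). Gsx1, a homeobox factor of the ventral forebrain, was at 0.562, 0.651 and 0.364 CPM against 3.46, 3.996 and 2.03 CPM (2.59 ± 0.59, adjusted p = 0.0394; 0.0577 without line 19). Dmrt3, a factor of forebrain and spinal neurons, was at 0.315, 0.233 and 0.364 CPM against 2.15, 3.17 and 1.73 CPM (2.92 ± 0.34, adjusted p = 0.000675). Dlx2 and Dlx1, homeobox factors of the ventral forebrain named after their values were seen, stayed below 1 CPM, with log2 fold changes of 2.74 ± 0.43 (adjusted p = 0.007) and 2.23 ± 0.54 (adjusted p = 0.0488). Sox1, the earliest neuroectoderm marker, was not called. It was at 7.44, 5.46 and 1.60 CPM in controls and at 12.7, 6.48 and 0.519 CPM in knockouts (0.40 ± 0.83, adjusted p = 0.821). The lowest Sox1 values were in line 1A4 and line 319, which share the Sox1gfp/+ allele, and the fitted sign turned without line 14 (-0.52). Both lines were again the lowest at day 3, but not at day 0. Line 319 was then the highest sample at 6.91 CPM. Line 1A4 was at 1.875 CPM, against 0.468 and 0.649 CPM in the HM1 replicates. Both lines are also blastocyst-derived, so allele and background cannot be told apart, and an effect of the allele was not tested.

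Nup210l, a testis-expressed relative of the pore membrane nucleoporin Nup210, was at 0.831, 0.884 and 0.667 CPM in controls and at 3.90, 5.35 and 4.28 CPM in knockouts (2.49 ± 0.31, adjusted p = 0.000884). It was the only call among 21 nucleoporins outside the Y-complex. Among 20 tested genes of nuclear transport, Ddx39b, an RNA helicase of mRNA export, was the only call. It was at 331, 330 and 332 CPM against 509, 736 and 555 CPM (0.86 ± 0.14, adjusted p = 0.0085). Nuggc, a nuclear GTPase of germinal centre B cells, was at 1.75, 1.86 and 1.17 CPM against 7.83, 14.6 and 8.17 CPM (2.68 ± 0.31, adjusted p = 0.000675). Hhipl2, related to a Hedgehog-binding protein, was at 0.0449, 0.0698 and 0.0606 CPM against 0.741, 1.89 and 0.692 CPM (4.08 ± 0.51, adjusted p = 0.0011). Tcte3, a dynein light chain of testis, was at 0.135, 0.093 and 0.101 CPM against 0.399, 1.51 and 1.43 CPM (3.19 ± 0.57, adjusted p = 0.0121). The remaining genes of the rule with large rises were S100a4, a calcium-binding protein (2.02 ± 0.46), Esam, an endothelial adhesion molecule (2.08 ± 0.41), Epp13 (2.09 ± 0.43), Cldn15, a tight junction claudin (2.14 ± 0.47), and Kcnc2, a potassium channel (2.00 ± 0.35), with adjusted p-values between 0.0108 and 0.0394. Without line 19, S100a4 (0.0911) and Cldn15 (0.0579) were not called.

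Some abundant genes were higher. Of 16 tested glycolysis genes, 2 were higher and 0 lower (median 0.43, or 0.25 without line 19; 4 were called without line 14 or without line 319). Eno1, enolase, was at 812, 798 and 1009 CPM in controls and at 1212, 1966 and 1558 CPM in knockouts (0.87 ± 0.19, adjusted p = 0.0351). Pgk1, phosphoglycerate kinase, was at 206, 205 and 245 CPM against 287, 353 and 563 CPM (0.84 ± 0.15, adjusted p = 0.0141), and lies on the X chromosome, whose median was higher in line 319. Mcm7, a subunit of the replicative helicase, was at 424, 408 and 399 CPM against 571, 763 and 600 CPM (0.65 ± 0.13, adjusted p = 0.0218). Fth1, the ferritin heavy chain, was at 547, 583 and 463 CPM against 826, 3020 and 819 CPM (1.52 ± 0.36, adjusted p = 0.0449). Line 19 decided the size for Fth1, and the value without it was 0.64 (adjusted p = 0.0404). Cdkn2a, a cell cycle inhibitor, was at 5.98, 7.05 and 6.14 CPM against 16.1, 28.7 and 9.47 CPM (1.45 ± 0.33, adjusted p = 0.0401; 0.0844 without line 19).

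Ribosomal protein genes and genes of oxidative phosphorylation, whose transcripts are short, followed line 19. The 26 ribosomal protein genes had a median length of 763 bases against 2757 over all genes, and a median log2 fold change of 0.87. In lines 14, 19 and 319 this median was 0.26, 1.75 and -0.11, and it was 0.09 in the fit without line 19. Rpl39 on the X chromosome was the only call (10 genes were called without line 14, 17 without line 319 and 0 without any one control), at 147, 129 and 185 CPM against 209, 394 and 306 CPM (1.00 ± 0.19, adjusted p = 0.0166; 0.66 without line 19). The 25 genes of oxidative phosphorylation had no call, but 15 were called without line 14 and 10 without line 319. At an unadjusted p below 0.05, 15 of the 25 were higher and 0 lower, and 2085 of all 18273 genes were higher. The list had a median length of 680 bases and medians of 0.15, 1.43 and 0.08 in lines 14, 19 and 319.

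**Figure D4:**
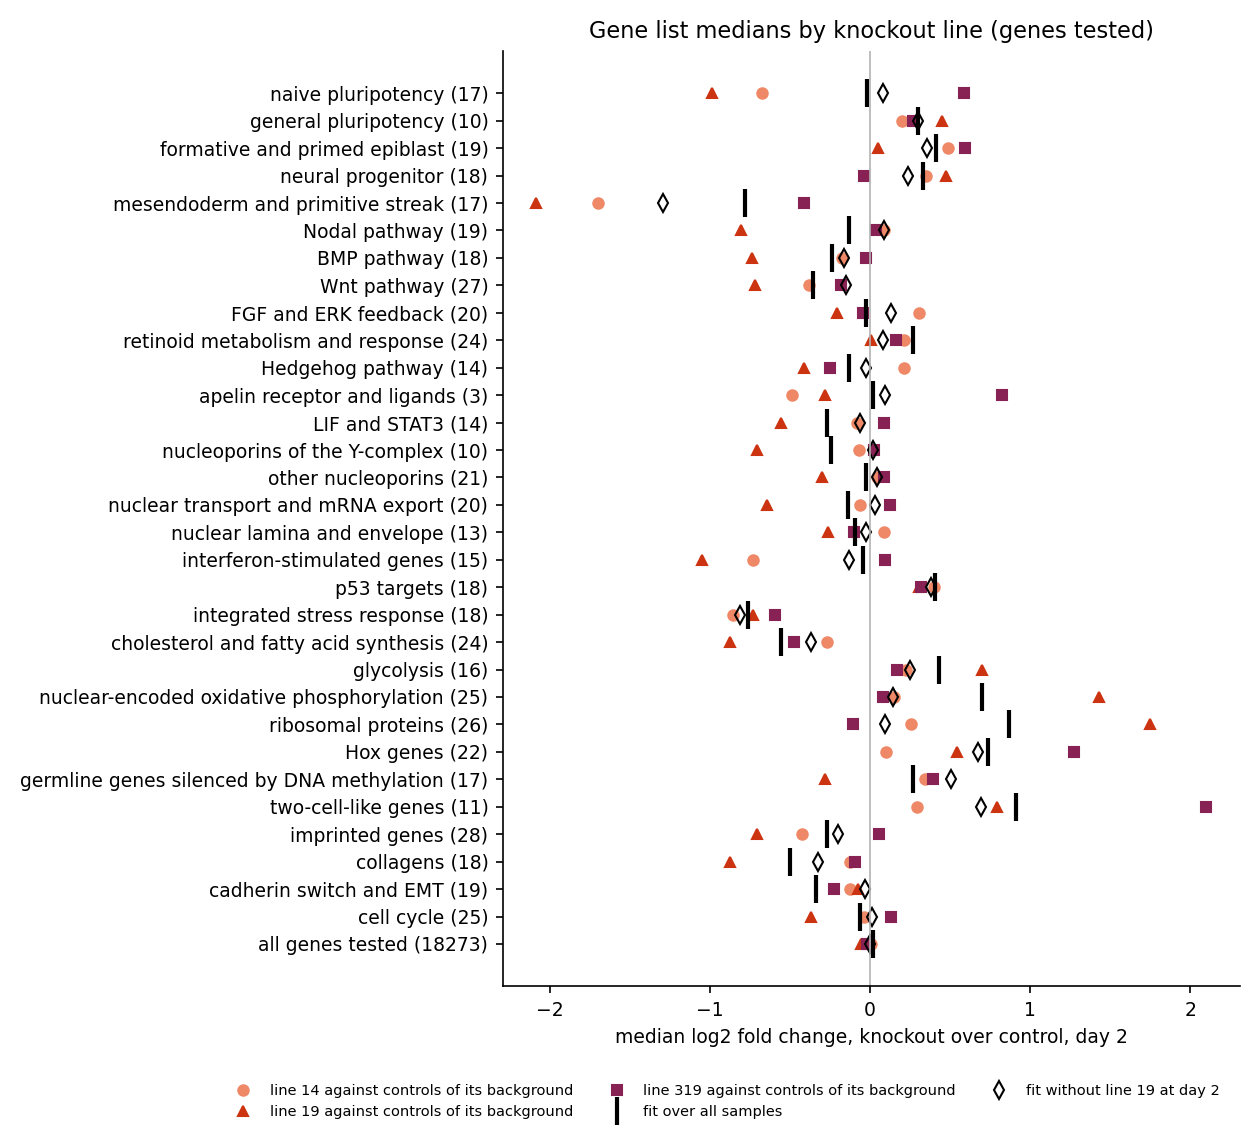
Median log2 fold change of each of 31 gene lists and of all genes tested (number of genes tested in parentheses), for each knockout line against the controls of its own background, for the fit over all samples and for the fit without line 19. The integrated stress response list is at -0.59 or lower in all 3 lines. The ribosomal protein list is at 1.75 in line 19, 0.255 in line 14 and -0.106 in line 319.

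No member was called by edgeR in 11 of the 31 lists. Besides oxidative phosphorylation, these held 1 to 6 genes at an unadjusted p below 0.05, as did 3735 of all 18273 genes. They held at most 3 calls when 1 sample was left out. In the naive pluripotency list of 17 genes, the median was -0.02, with -0.68, -0.99 and 0.59 in lines 14, 19 and 319, so the lines went in different directions. Nanog, a core factor of naive cells, was at 111, 97.6 and 63.5 CPM in controls and at 39.6, 20.9 and 83.1 CPM in knockouts (-1.10 ± 0.51, adjusted p = 0.24). The p53 target list had a median of 0.40, with 17 of 18 genes above 0. The list of 11 tested genes of the two-cell-like state had a median of 0.91, and of 2.10 in line 319. The lists of FGF and ERK feedback, LIF and STAT3, nuclear lamina, germline genes, imprinted genes, collagens and cadherin switch had medians between -0.50 and 0.27. Markers of neurons summed to between 217 and 260 CPM in controls and 194 and 321 CPM in knockouts, with none called. The 15 markers of primitive and visceral endoderm summed to between 277 and 288 CPM in controls and 189 and 243 CPM in knockouts. Of 13 tested, 1, Pdgfra, was higher and 0 lower by the test. Gata4 (1.27, adjusted p = 0.0558, or 0.0318 without line 19) and Sox17 (-2.34, adjusted p = 0.0594) went in opposite directions. Afp and Ttr held at most 3 counts in every sample.

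The day 2 difference was compared with that on the days before and after, which use other samples of the same lines. From day 0 to day 2 the difference between knockout and control changed in 4 of 18273 genes (0.0219%), each with a fold change below 0 at day 0, which for Isg20 was not called (adjusted p = 0.114). Apln was at 12.1 ± 2.47 CPM in controls and 1.46 ± 0.130 in knockouts at day 0 (SD, n = 3), and at 11.4 ± 4.05 and 11.1 ± 1.54 CPM at day 2. Its log2 fold change rose from -3.03 to 0.02, a change of 3.04 ± 0.33 (adjusted p = 0.0019). Mixl1 went from -4.21 to -0.78 (change 3.43 ± 0.54, adjusted p = 0.047), as its level fell in the controls from 6.30 to 1.18 CPM. Fam213a went from -1.10 to 0.61 (change 1.71 ± 0.23, adjusted p = 0.0121) and Isg20 from -1.22 to 2.03 (change 3.25 ± 0.48, adjusted p = 0.0322). With the line as a replicate block 1 gene, Apln, was called, and without line 19 Mixl1 was not (adjusted p = 0.0512).

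From day 2 to day 3, after retinoic acid, the difference changed in 7 genes (0.0383%), and 3 were called with the line as a replicate block, Cyp26a1, Lhx1 and Cer1. Cyp26a1 went from -4.71 to 1.24 (change 5.94 ± 0.55, adjusted p = 0.000233), with means of 63.7 CPM in controls and 150 CPM in knockouts at day 3. Lhx1 went from -4.20 to 2.24 (change 6.44 ± 0.75, adjusted p = 0.0025), with day 3 means of 9.02 and 42.3 CPM. Cer1 went from -5.46 to 1.43 (change 6.89 ± 0.79, adjusted p = 0.0035). Its mean fell from 4.37 to 0.0576 CPM in controls and went from 0.0839 to 0.160 CPM in knockouts, so both groups were near 0 at day 3. Frzb went from -1.75 to 2.10 (change 3.85 ± 0.51, adjusted p = 0.0069). Nlrp6, an inflammasome gene, went from -0.39 to 2.28 (adjusted p = 0.0356). In the other direction, Kcnc2 went from 2.00 to -1.23 (adjusted p = 0.0325) and Wfikkn1, which encodes a secreted protease inhibitor, from 1.61 to -2.18 (adjusted p = 0.0463). Without line 19, Nlrp6, Kcnc2 and Wfikkn1 were not called (adjusted p 0.0522, 0.0512 and 0.0584). The log2 fold changes of T on the 3 days, in order, were -3.72, -3.08 and -1.19, and those of Aplnr were -6.62, -5.51 and -2.10.

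**Figure D5:**
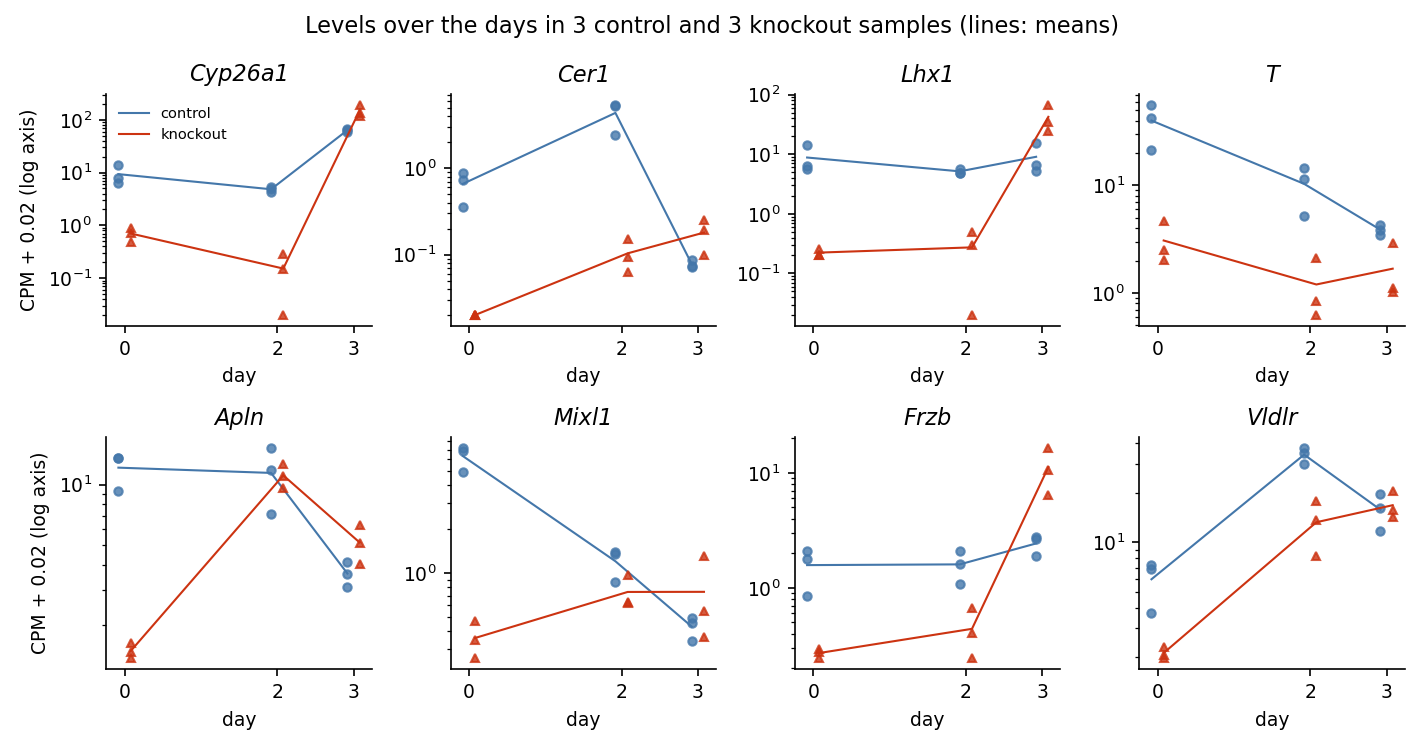
CPM (log axis, after adding 0.02) of 8 genes in the 3 control and 3 knockout samples at days 0, 2 and 3, with lines through the group means. Cyp26a1, Lhx1 and Frzb are below the controls in the knockout at day 2 and above them at day 3; Apln is below them at day 0 and within their range at day 2.

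Several named genes overlap others, and the use of strand in the counting is not given in the sources used here. Overlapping exons on the opposite strand belong to 9530036O11Rik and Gm26894 for Shh, Gm29773 and Gm45890 for Nup133, Hoxaas3 for Hoxa7, Zic4 for Zic1, Ermard for Tcte3, Ap4m1 and Cops6 for Mcm7, Pcsk7 for Tagln, Cct6a for Psph, Dlx1as for Dlx1 and Gm38058 for Fzd5. On the same strand, Gm3448 overlaps Tcte3, Exosc6 overlaps Aars and Gm42674 overlaps S100a4. The levels of these genes may include reads of their neighbours.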

How the data were processed

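The submitters' processing notes name bcl2fastq 2.17.1.14, STAR 2.4.0k, SAMtools, HTSeq and the build mm10, without their settings; the annotation release is not given in the sources used here. The authors deposited 72 files of whole-number counts, one value for each Ensembl transcript. Counts over all transcripts came to 2.62 to 2.92 times those over one transcript per gene at day 2, so a gene was represented by its transcript with the highest total, named from GENCODE M21 (108214 of 110379 identifiers matched). The 4 technical files of each of the 18 samples were added up (16.5 M to 51.7 M counts at day 2; chi-square per degree of freedom between technical files 1.01 to 1.03 at day 2).

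The main test was the quasi-likelihood test of edgeR 4.0.16 with limma 3.58.1 in R 4.3.3: TMM scaling, filterByExpr, a robust quasi-likelihood fit of the 6 groups of genotype and day plus a term for background (HM1-derived or blastocyst-derived), 11 residual degrees of freedom and Benjamini-Hochberg adjustment over 18273 genes. CPM use TMM scaling; errors of log2 fold changes are SE. A fold against samples with at most 3 counts each is a lower bound; such bounds cover counting error only. Whether HM1 replicates were separate cultures beyond the label is not known, so their spread may be partly technical. The procedure was tested on simulated data that held no effects of line, background, chromosome or transcript length. Alternatives used DESeq2 1.42.0, other filters, scalings, transcripts, offsets and sample sets. The same line sampled on several days pairs samples between days; deviations of a line from its group mean correlated above 0.1 between days in 11 of 12 cases (lowest -0.07, line 19 from day 2 to day 3).

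Members, lists and tests were chosen with earlier results of these data known. The rule for named genes took Nup133 and Sox1, the 12 highest and 12 lowest fold changes among called genes (a higher-group mean from 1 CPM up, same sign in the 3 lines, outside chromosomes 8, 12, X and Y), 5 abundant called genes per direction, called members of each list (or its abundant members) and genes of the contrasts between days. Of its 92 genes 59 are described, 32 were not called (log2 fold changes from -1.11 to 0.94) and 1 is not reported here. A further 26 genes were chosen after their values were seen.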

Additional observations from a re-analysis of the deposited data

Results flagged for a closer look

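The difference between knockout and control changed between days, by an interaction test in edgeR, in 11 genes. From day 0 to day 2 the change on the log2 scale was 3.04 for Apln, 1.71 for Fam213a, 3.25 for Isg20 and 3.43 for Mixl1, all towards higher levels in the knockout. From day 2 to day 3 it was 6.89 for Cer1, 5.94 for Cyp26a1, 3.85 for Frzb, 6.44 for Lhx1 and 2.66 for Nlrp6, and in the other direction -3.23 for Kcnc2 and -3.79 for Wfikkn1. For Cer1 the control mean fell from 4.37 to 0.0576 CPM while the knockout mean stayed near 0, at 0.0839 and 0.160 CPM. With the line as a block, Apln, Cer1, Cyp26a1 and Lhx1 were called among these. Each change rests on 3 samples per group and day.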

How the results depend on the processing

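The 292 calls at day 2 became 1400 with the DESeq2 Wald test, 185 without the background term, 478 with the transcript length offset and 0 on the day 2 samples alone; leaving out a day 2 sample gave 50 to 1507. The 4 changes from day 0 to day 2 became 70 with DESeq2, 2 when line 19 was dropped on all days, 0 with HM1 and its derivatives only, 2 without the background term and 7 without a filter, with 1 to 4 when a sample was left out. The 7 changes from day 2 to day 3 became 121 with DESeq2, 14 with HM1 and its derivatives only and 16 without a filter, with 4 to 19 when a sample was left out. With the line as a replicate block the pairing gave 290, 1 and 3 calls. The 290 are from limma, with an estimated correlation within lines of 0.009. The counts of 1 and 3 are from edgeR with a term for each line. The cause of these moves was not tested.

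No called gene named here changed sign under the alternatives. Among uncalled ones, Sox1 turned to -0.52 without line 14 (-0.52 to 0.95 when a sample was left out), and Eomes to -0.13 with HM1 and its derivatives only and -0.14 without line 319 (-0.14 to 1.09). Apln turned to -0.40 with HM1 and its derivatives only, -0.071 with each chromosome centred, -0.041 without the background term, -0.019 without a filter, -0.039 with the block, -0.28 without line 319 and -0.20 without line 1A4 (-0.28 to 0.22). Ddit3 turned to 0.56 with HM1 and its derivatives only, 0.04 without line 14, 0.32 without line 319 and 0.18 without line 1A4 (-1.29 to 0.32). At 16.5 M counts, line 19 limits what low genes can show.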
